A study of Mus musculus with 6 samples.

Results

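Gamma-delta-like scavenger receptor cells were the progeny cells that carried RNA of at least 2 of 4 genes, Cd163l1, 5830411N06Rik, Blk and Sox13, with 2 or more UMIs (unique molecular identifiers, 1 per captured RNA molecule) of these genes in all. By this rule 278 of 60671 kept cells were members, or 0.458% (95% exact interval 0.406 to 0.515%). The rule read these 4 genes in the same cells, so their levels in members are given as a description and without a test. A kept cell had 200 or more genes detected, no more than 2000 UMIs, and a mitochondrial share of 30% or less.

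RNA was measured by sci-RNA-seq3, a combinatorial indexing method, in progeny of bone marrow-derived CD4- CD8- (DN) progenitors. DN1 cells, which have CD44 but lack CD25, and DN2 cells, which have both, were sorted from WT or ΔTE cultures, the DN2 cells being split into DN2a without and DN2b with Bcl11b reporter signal, grown again for 4 days on OP9-DL1 stromal cells, which present the Notch ligand DLL1, and sequenced as 6 libraries, 1 per genotype and start. The paper's methods list the cytokines IL-7, IL-2, SCF and IL-15 as supplements for the single-cell experiment, and Flt3-L and IL-7 for all T-cell cultures. ΔTE mice lack the timing enhancer, a distal element that sets when Bcl11b turns on, on both copies of Bcl11b. WT and ΔTE mice both carried a YFP reporter on both Bcl11b copies, were C57BL/6, and were 2 to 4 months old at harvest, with males and females combined. Progenitors were pooled from 6 to 8 mice per genotype, and no label ties cells to a mouse. The cells were fixed whole with paraformaldehyde, and for the step after this the labels speak of permeabilised nuclei. The sort took out cells stained for lineage markers, among them CD3ε and NK1.1, before the 4 days of culture. With 1 library per condition there was no test between conditions, and all intervals on shares and levels cover counting error only.

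Gamma-delta T cells carry a T-cell receptor of gamma and delta chains and branch from the alpha-beta lineage at the DN stages. Cd163l1 (also named Scart1) and 5830411N06Rik (Scart2) encode related scavenger receptors with cysteine-rich domains that mark gamma-delta T cells, above all IL-17-producing subsets. Blk is a Src-family kinase and Sox13 an HMG-box transcription factor, and both are needed for IL-17-producing gamma-delta T cells. Maf, Rora and Zbtb16 (which encodes PLZF) are further regulators of innate-like gamma-delta cells, and Zbtb16 and Rora also mark innate lymphoid cells (ILCs). Bcl11b, the factor whose timing the deletion alters, holds T-lineage cells in their fate and represses Zbtb16 and Id2.

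The label could be checked only in part. The gene table of 28048 genes held none of the constant or variable genes of the gamma, delta, alpha or beta receptor chains that the marker lists named, so receptor expression was not analysed here. Of the later IL-17-type genes, Il17a, Il17f, Il23r and Ccr6 had 0 UMIs among the 199204 UMIs of the members, and in all other cells none of them passed 0.413 CPM (UMIs per 1e6 UMIs). Ptcra, which encodes the partner of the rearranged beta chain, had 0 UMIs in members, where the 95% exact interval reached 18.5 CPM, beside 2.0 CPM in all other cells and 19.4 CPM in T-lineage cells with CD3 RNA, so a difference was not detectable at this depth. The cells are therefore called members, after the rule, and not gamma-delta T cells.

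The 2 scavenger receptor genes are close neighbours on chromosome 7 and paralogs, so reads of one may in part have been counted for the other. Their upstream sequences are shown because the levels of these neighbours differed in opposite directions between the genotypes. The 250 bases before each RefSeq start site in build GRCm38.p6, both on the plus strand, are chr7:140218017-140218266 for Cd163l1 and chr7:140247051-140247300 for the first of 3 listed starts of 5830411N06Rik. The submitters' processing notes name build mm9, so no position of the deposited counts was used. Capitals mark matches to CANNTG, the E-box, a broad pattern that includes the sites of E proteins such as Tcf3 and Tcf12. A match alone does not show such a site.
Cd163l1: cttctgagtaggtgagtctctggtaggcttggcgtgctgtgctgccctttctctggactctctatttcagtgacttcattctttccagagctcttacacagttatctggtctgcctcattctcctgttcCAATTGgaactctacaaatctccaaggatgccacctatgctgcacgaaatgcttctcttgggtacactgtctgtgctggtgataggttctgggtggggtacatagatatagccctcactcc
5830411N06Rik: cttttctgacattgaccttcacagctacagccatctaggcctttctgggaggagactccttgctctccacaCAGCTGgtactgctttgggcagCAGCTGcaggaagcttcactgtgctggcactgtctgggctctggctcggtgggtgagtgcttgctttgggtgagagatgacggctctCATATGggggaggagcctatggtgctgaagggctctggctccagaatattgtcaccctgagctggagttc
Cd163l1 had 1 E-box match, CAATTG, and 5830411N06Rik had 3, and 66.2% of 32851 windows of the same length held at least 1. A GATA match, AGATAA read on either strand, lay in the Cd163l1 window and in none of 5830411N06Rik, against 9.99% of all windows. A match to AGGTCA, the core of ROR factor sites, and one to TGCTGA, the core of MAF factor sites, lay in the 5830411N06Rik window shown and none in that of Cd163l1, against 14% and 16.1% of all windows. The windows of the later listed starts of 5830411N06Rik each held the MAF core and 2 E-box matches but not the ROR core. The SOX motif AACAAT had 0 matches in either window, as had the RUNX motif TGTGGT and, on both strands like the others, the TCF/LEF motif CTTTGA. The Sox13 window had 0 matches to any of these motifs, and no window was read for Blk.

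Members were rare after a DN1 start and became more frequent with each later start, in both genotypes. WT DN1 held 4 members of 10925 kept cells (0.0366%, 95% exact interval 0.00998 to 0.0937%), WT DN2a 48 of 19489 (0.246%, 0.182 to 0.326%) and WT DN2b 90 of 4968 (1.81%, 1.46 to 2.22%). ΔTE DN1 held 2 of 10294 (0.0194%, 0.00235 to 0.0702%), ΔTE DN2a 58 of 11594 (0.500%, 0.380 to 0.646%) and ΔTE DN2b 76 of 3401 (2.23%, 1.77 to 2.79%). The 3 starts did not overlap in their intervals within WT, nor within ΔTE. In the 3 reverse-transcription wells of each library, which are technical parts of 1 culture, the share ran from 0.189 to 0.282% in WT DN2a and from 0.361 to 0.630% in ΔTE DN2a, so that all ΔTE wells lay above all WT wells. For the DN2b start, the wells ran from 1.54 to 2.07% in WT and from 1.94 to 2.58% in ΔTE, and overlapped.

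**Figure D1:**
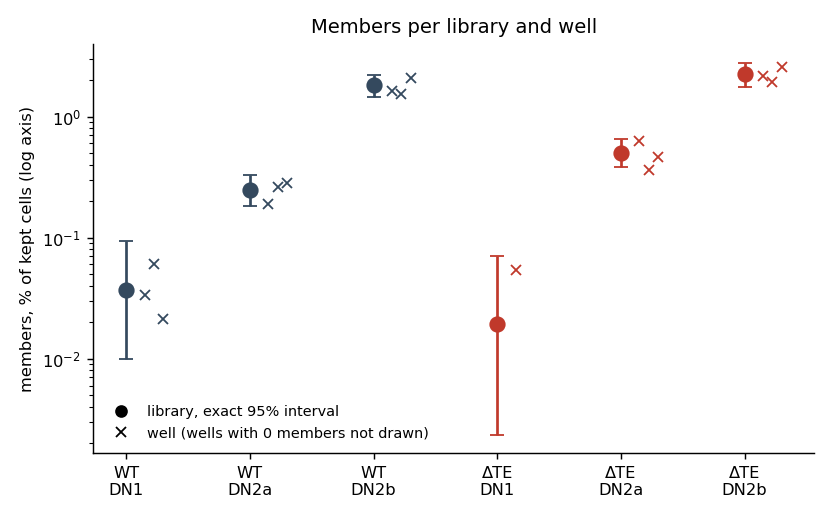
Members as a percent of kept cells on a log axis, by library (circles, exact 95% interval) and by well (crosses, wells with 0 members not drawn), WT in dark blue and ΔTE in red. The share rose from DN1 over DN2a (0.246% in WT, 0.500% in ΔTE) to DN2b (1.81% and 2.23%).

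After the DN2a start the share was higher in ΔTE than in WT by a log2 ratio of 1.02 (95% exact interval 0.45 to 1.61). After the DN2b start the log2 ratio was 0.30 (-0.16 to 0.76), and after the DN1 start -0.91 (-4.38 to 1.89), on 2 and 4 members. The DN2a ratio turned on which scavenger receptor gene the rule read. Without Cd163l1 in the rule it was 0.039 (-1.19 to 1.20), with 11 and 18 members, and without 5830411N06Rik it was 2.13 (1.03 to 3.34), with 26 and 10 members. The DN2b ratio was -0.62 (-1.57 to 0.26) without Cd163l1 and 0.89 (0.037 to 1.77) without 5830411N06Rik. The size of the ratio, and after the DN2b start its sign, changed with the receptor gene in the rule.

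Members held more UMIs than the other kept cells of their library, which a rule on counts favours. Their median ran from 565.5 to 971.5 UMIs over the 6 libraries, against 385 to 485 in the other cells, and their median mitochondrial share ran from 12.4 to 23.9%, against 13.3 to 23.9%. When every cell with 300 or more UMIs was thinned to 300, WT DN2a had 13 members of 14766 cells (0.0880%), ΔTE DN2a 24 of 10123 (0.237%), WT DN2b 29 of 4413 (0.657%) and ΔTE DN2b 23 of 2939 (0.783%), and WT DN1 and ΔTE DN1 had 0 of 9659 and 0 of 9284, which allows shares of up to 0.0311% and 0.0323% (3 counts of the total). The order of the starts was the same at equal depth. No barcode was shared by 2 libraries. No doublet caller was run, and the part of doublets in the members was not tested.

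Most members stood just inside the rule. Of the 278, 174 had exactly 2 UMIs of the 4 genes, 75 had 3 and 29 had 4 or more, with at most 6. Just outside it, 616 cells had 2 or more UMIs of 1 gene only and 3038 had a single UMI, while 56739 cells had none. Cd163l1 with 5830411N06Rik was the pair seen most often, in 127 members (45.7%), before 5830411N06Rik with Sox13 (44), Cd163l1 with Sox13 (39), Cd163l1 with Blk (31) and 5830411N06Rik with Blk (20). In all, 205 members (73.7%) carried Cd163l1, 202 (72.7%) 5830411N06Rik, 97 (34.9%) Sox13 and 64 (23.0%) Blk. A set of 3 genes was seen in 12 members, and all 4 in none.

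The receptor genes were less frequent in stromal cells, which should lack them. Median depths were 555.0 UMIs in stromal marker cells and 434.0 UMIs in all kept cells. Cd163l1 had a UMI in 20 of 2993 cells with stromal collagen and matrix RNA (0.668%) against 2.69% of all kept cells, and 5830411N06Rik in 1.04% against 2.48%. In WT DN2a, which held most of the stromal marker cells, Cd163l1 was in 11 of 1731 of them and in 331 of 19489 kept cells, and 5830411N06Rik in 21 and 427 of these. In 300 cells with myeloid marker RNA, at a median of 548.5 UMIs, both genes were in 0, which allows up to 1%. Of these, 183 came from WT DN1 and 104 from ΔTE DN1, where Cd163l1 was in 46 of 10925 and 65 of 10294 kept cells, so a difference was not detectable there. Both genes were above this background in T-lineage cells with at least 2 Cd3d, Cd3e, Cd3g or Cd247 UMIs from at least 2 of these genes (Cd3 cells, 1015 that were not members): 6.21% (4.80 to 7.87%) had Cd163l1 and 10.7% (8.90 to 12.8%) 5830411N06Rik, at a median of 553.0 UMIs. In 266 cells that carried at least 2 of Il2rb, Icos, Il1rl1, Il18r1, Ncr1, Klrd1 and Cd160 (ILC or NK marker cells), at a median of 534.0 UMIs, 13.9% (9.99 to 18.7%) had Cd163l1 and 7.52% (4.65 to 11.4%) 5830411N06Rik. Blk and Sox13 each had a UMI in 0.376% of them, within counting error of their 0.167% and 0.334% in stromal marker cells. These pooled shares mix genotypes. After the DN2b start Cd163l1 and 5830411N06Rik were in 18 and 51 of 257 Cd3 cells and in 2 and 7 of 23 ILC or NK marker cells in WT, and in 16 and 16 of 143 Cd3 cells and in 23 and 3 of 96 ILC or NK marker cells in ΔTE. After the DN2a start they were in 15 and 27 of 397 and in 0 and 1 of 32 such cells in WT, and in 11 and 12 of 146 and in 12 and 9 of 97 in ΔTE. Within the WT libraries of both DN2 starts, 5830411N06Rik was in more cells of both sets than Cd163l1. In the ILC or NK marker cells of WT DN2a this rested on 1 cell against 0. Within the ΔTE libraries of both DN2 starts, Cd163l1 was in more of the ILC or NK marker cells than 5830411N06Rik.

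Cd163l1 made up a larger part of the scavenger receptor RNA in ΔTE than in WT libraries at every start. Over all kept cells, Cd163l1 was 55.4% of the UMIs of both genes in WT DN1 (95% exact interval 44.7 to 65.8%), 43.4% in WT DN2a (40.0 to 46.7%) and 34.1% in WT DN2b (31.2 to 37.1%). It was 73.6% in ΔTE DN1 (64.1 to 81.7%), 67.4% in ΔTE DN2a (64.2 to 70.6%) and 64.9% in ΔTE DN2b (61.8 to 67.9%). The highest of the 3 wells in WT lay below the lowest in ΔTE at each start: 65.4 and 68.4% for DN1, 45.4 and 64.0% for DN2a, and 39.2 and 64.1% for DN2b. For DN1 the intervals of these wells (44.3 to 82.8% and 51.35 to 82.5%) overlapped, as did those of the WT and ΔTE libraries. Within members, where the rule shapes the balance, it was 44.3% in WT DN2a against 60.4% in ΔTE DN2a, and 44.6% in WT DN2b against 54.8% in ΔTE DN2b, with intervals that overlapped at both starts. The wells share 1 culture per condition, and whether another culture would show the same was not tested.

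**Figure D2:**
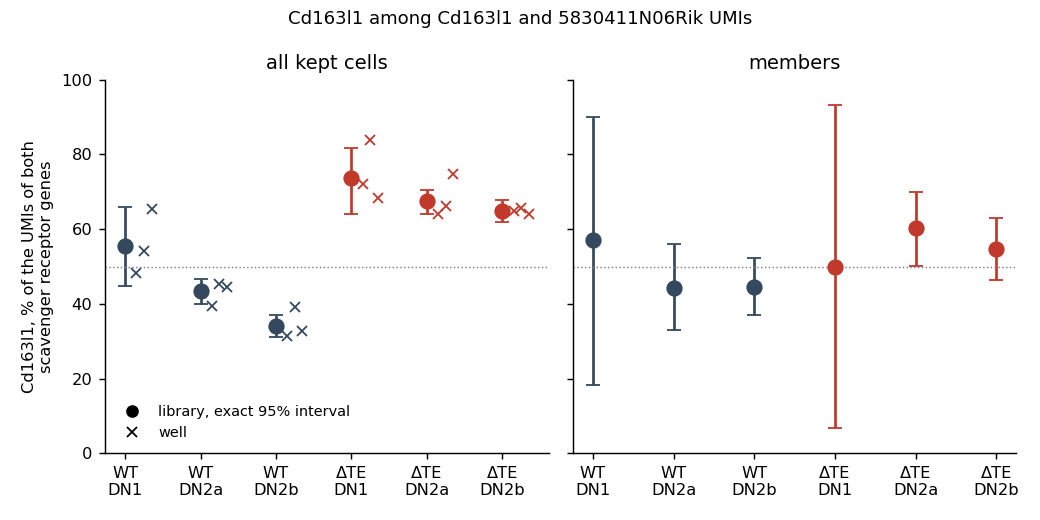
Percent of Cd163l1 among the UMIs of Cd163l1 and 5830411N06Rik, by library with exact 95% interval (circles) and by well (crosses), over all kept cells (left) and within members (right), WT in dark blue and ΔTE in red. Over all kept cells the ΔTE libraries sit at 64.9 to 73.6% and the WT libraries at 34.1 to 55.4%.

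After both DN2 starts the shift came from both genes. After the DN1 start the log2 ratio was 0.636 (0.109 to 1.175) for Cd163l1 and -0.527 (-1.275 to 0.201) for 5830411N06Rik. In all kept cells, the Cd163l1 level after the DN2b start was 126.6 CPM in WT and 370.4 CPM in ΔTE, a log2 ratio of 1.55 (1.36 to 1.74), and after the DN2a start 41.6 and 91.5 CPM, a log2 ratio of 1.14 (0.95 to 1.33). The 5830411N06Rik level was lower in ΔTE, with a log2 ratio of -0.29 (-0.48 to -0.098) for DN2b and -0.30 (-0.52 to -0.083) for DN2a. Blk, the kinase, went with Cd163l1, with log2 ratios of 0.75 (0.17 to 1.34) for DN2b and 0.89 (0.48 to 1.31) for DN2a. Sox13, the transcription factor, went with 5830411N06Rik, with log2 ratios of -0.43 (-0.82 to -0.059) for DN2b and -0.37 (-0.68 to -0.077) for DN2a. The 4 rule genes therefore split into a pair that was higher and a pair that was lower in the ΔTE libraries of both DN2 starts, each with an interval that left out 0.

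Next, members were set against all other kept cells to find what else they expressed. UMIs were summed per library for each set of cells, and the 12 sums were compared with edgeR's quasi-likelihood test with the library as a block. The rule genes were left out, and Benjamini-Hochberg adjusted p-values were taken over 6899 genes. The 6 libraries come from 1 culture per condition, and the starts of a genotype may share a mouse pool. The p-values here therefore measure only the spread between these libraries. Of the genes tested, 20 passed the threshold (0.29%), 8 higher in members (0.116%) and 12 lower (0.174%). The median log2 fold change of all genes tested was -0.18. TMM factors were 2.36 and 3.67 for the DN1 sums of members, which held 3332 and 1926 UMIs, and 0.75 to 0.93 for all other sums. With library totals in place of TMM the median was -0.013 and 52 genes passed, 27 higher and 25 lower.

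Maf, the factor required for IL-17-producing gamma-delta cells, was higher in members. Its level in members was 600.2 CPM in WT DN1 (2 UMIs), 333.4 in WT DN2a, 192.0 in WT DN2b, 0 in ΔTE DN1, 180.6 in ΔTE DN2a and 466.7 in ΔTE DN2b, against 20.7 to 177.5 CPM in the other cells. It was higher in 5 of 6 libraries, and the library at 0, ΔTE DN1, held 2 members. The members' values overlapped those of the other cells only through that library. The log2 fold change was 1.5 ± 0.30 (SE) with adjusted p = 0.000899 by edgeR.

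Hmga2, a chromatin architectural protein known from fetal progenitors, was higher as well. In members it was 0 CPM in WT DN1, 151.6 in WT DN2a, 137.2 in WT DN2b, 1038 in ΔTE DN1 (2 UMIs), 412.7 in ΔTE DN2a and 324.6 in ΔTE DN2b, against 15.7 to 165.5 CPM in the other cells. WT DN2a and WT DN2b lay inside the range of the other cells, WT DN1 lay below it and the 3 ΔTE libraries lay above it. It too was higher in 5 of 6 libraries, and its log2 fold change was 1.63 ± 0.31 (SE), edgeR adjusted p = 0.000599. Leaving out ΔTE DN2a ended this call (adjusted p = 0.300), and leaving out WT DN2a ended that of Maf (adjusted p = 0.0813).

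The other 6 genes called higher were Inpp4b, Skap1, Sh2d1a, Ccr9, Tox2 and Sv2b. Inpp4b, a phosphatase of phosphoinositide signalling, was at 712.8 CPM in members (95% Poisson interval 600.4 to 840.2) and 184.4 CPM in the other cells, with a log2 fold change of 1.33 ± 0.27 (SE, 5 of 6 libraries). Skap1, an adaptor that links the T-cell receptor to integrins, was at 401.6 and 103.5 CPM, with a log2 fold change of 1.11 ± 0.29 (SE, 5 of 6 libraries, edgeR adjusted p = 0.0374). Sh2d1a, which encodes the adaptor SAP used by innate-like lymphocytes, rested on 16 UMIs in members and had a log2 fold change of 2.44 ± 0.58 (SE, 3 of 6 libraries). Ccr9, the receptor for the thymic and gut chemokine CCL25, was read in 33 UMIs of members, 13 of them in WT DN2b and 17 in ΔTE DN2b, and had a log2 fold change of 1.74 ± 0.35 (SE, 3 of 6 libraries). Tox2, an HMG-box factor of T and NK cells, had a log2 fold change of 2.06 ± 0.47 (SE, 19 UMIs, 4 of 6 libraries), and Sv2b, a synaptic vesicle glycoprotein, had 9 UMIs in members. Ccr9, Sh2d1a and Sv2b fall outside the rule on named genes and are given because they complete the 8.

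The genes lower in members were led by matrix genes of stromal cells. Bgn (biglycan) had 7 UMIs in members, 35.1 CPM against 273.5 CPM in the other cells, and a log2 fold change of -2.95 ± 0.52 (SE, lower in 5 of 6 libraries, edgeR adjusted p = 0.000128). A low level of Bgn was not particular to members, as it was at 87.8 CPM in Cd3 cells and 59.7 CPM in ILC or NK marker cells. Col1a1, Col1a2 and Col6a2, collagen chains, had log2 fold changes of -2.46, -1.83 and -3.0, and Fstl1, a secreted glycoprotein, and Mmp14, a matrix metalloprotease, of -2.46 and -3.8, each lower in 6 of 6 libraries. Arhgap6, a regulator of small GTPases, had -2.63 and was lower in 5 of 6. Angpt1, the ligand angiopoietin-1, fell by 1.43 ± 0.34 (SE) from 1246 CPM in the other cells to 406.6 CPM in members, and was lower in 6 of 6 libraries. It is named here after its values were seen. Angpt1 was at 647.4 CPM in Cd3 cells and 256.7 CPM in ILC or NK marker cells. Gid4, Spns2 and Pcbd2 had 0 UMIs in all members. Taking 3 UMIs over all members as the limit that a count of 0 allows, Gid4 was in pooled levels at least 3.50-fold, Spns2 at least 4.51-fold and Pcbd2 at least 2.78-fold lower in members. These bounds are not matched by library.

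All 20 calls were lost when the library was not a block, where edgeR called 0 genes, with 649 at an unadjusted p under 0.05, against 441 with the block. Of the 20 calls, 2 held without ΔTE DN2a, 7 without WT DN2a, 7 without ΔTE DN2b and 8 without WT DN2b, while 17 of the 20 held without both DN1 libraries and 17 when comparison cells of like UMI totals were taken. When members had to hold 3 UMIs of the rule genes, 3 of the calls held and none of the 8 higher genes passed. On simulated counts of this design, with changes set only in better-expressed genes, the test recovered 100% of 4-fold increases but 6% of 2-fold increases, so few 2-fold differences could be called. Recovery of genes as low in the other cells as Ccr9, Tox2, Sh2d1a and Sv2b was not simulated.

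**Figure D3:**
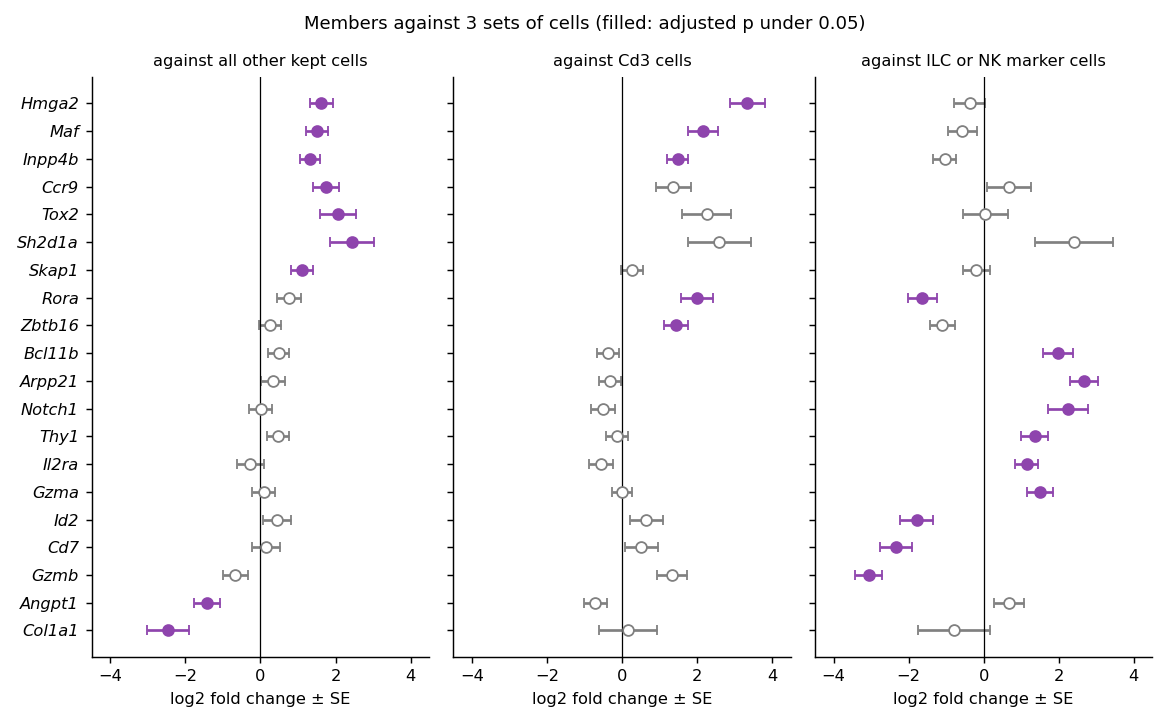
Log2 fold changes of 20 genes in members, with SE, against all other kept cells (left), Cd3 cells (middle) and ILC or NK marker cells (right), filled where the edgeR adjusted p was under 0.05. Maf and Hmga2 are higher in members than in all other cells and than in Cd3 cells, and Bcl11b, Notch1 and Thy1 are higher than in ILC or NK marker cells, where Gzmb, Cd7 and Id2 are lower.

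Gene lists were then read in the same comparison. Of 18 CD3 and receptor signalling genes, 14 were tested against all other cells, of which 1 (Skap1) was called higher and 0 lower, with a median log2 fold change of 0.48 beside -0.18 for all genes tested. Cd3g and Cd247, which encode chains of the CD3 complex, had log2 fold changes of 0.54 and 0.74 that did not pass. The summed level of the 18 genes was 3188 CPM in members, 2077 to 3772 over the 6 libraries, 1625 CPM in all other cells (1049 to 2632) and 6100 CPM in Cd3 cells (4481 to 6445). Members stood between the 2 other sets in each of the 6 libraries, the Cd3 cells having been chosen by 4 of these genes, and 31 of them (11.2%) met the Cd3 rule themselves. Zap70 had 0 UMIs in members.

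Of the 27 genes of the IL-17-type list, 13 could be tested and 1, Maf, was called higher, with a median of 0.28. The list summed to 3143 CPM in members (2577 to 3689), 2193 CPM in all other cells (1884 to 2735), 1959 CPM in Cd3 cells (1629 to 2184) and 6058 CPM in ILC or NK marker cells (4132 to 6173). The members' range lay above that of Cd3 cells without overlap. This list also holds genes that ILCs use, among them Zbtb16, Rora, Ccr2 and Il18r1. Zbtb16 was at 436.7 CPM in members and 327.1 CPM in the other cells, a log2 fold change of 0.26 ± 0.29 (SE) that did not pass and was -0.12 when members had to hold 3 UMIs of the rule genes. Sox4, which encodes an HMG-box factor of gamma-delta precursors, was at 768.1 and 660.8 CPM and did not pass. Of the 27 genes, 8, including Il17a and Il23r, had 0 UMIs in members.

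Of 21 T-lineage factors and surface genes, all tested, 1 (Tox2) was called higher and the median was 0.11. Bcl11b was at 848.4 CPM in members (725.3 to 986.4) and 364.4 CPM in all other cells, with a log2 fold change of 0.48 that did not pass. Thy1 was at 983.9 and 409.1 CPM, Il2ra at 2861 and 2548 CPM, and Runx1 at 1456 and 1378 CPM, and none of these passed either. Pooled levels weigh the starts differently, since 90 and 76 of the 278 members but 4878 and 3325 of the other cells came from WT and ΔTE DN2b, whereas the fitted fold changes compare cells of the same library. Of the 3 recombination genes, Rag2 and Dntt were tested and did not pass, with 6 and 20 UMIs in members. Id2, the inhibitor of E proteins, was at 125.5 and 53.1 CPM, with a log2 fold change of 0.43 that did not pass.

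Of 16 genes of the IFN-gamma-type and NK list, 4 were tested and none passed (edgeR, also none at an unadjusted p under 0.05), with a sum of 1928 CPM in members (300.1 to 2657) and 1578 CPM in all other cells (1173 to 2180). Gzma, a granzyme, made up most of it, at 1195 and 880.9 CPM. The 12 ILC genes summed to 276.1 CPM in members (0 to 629.0) and 83.8 CPM in all other cells (27.4 to 346.6), and of the 2 that were tested none passed, with 1 at an unadjusted p under 0.05.

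Of the markers of other cell types, the summed stromal genes were at a lower level in members than in the other cells of each of the 6 libraries. Of 11 stromal genes, 6 were tested and 2 were called lower, and their sum was 316.3 CPM in members (0 to 1122) and 1055 CPM in all other cells (259.6 to 2047), with WT DN2a the highest in both. The stromal sum was also low in Cd3 cells (267.9 CPM) and in ILC or NK marker cells (250.7 CPM). No stromal gene was called between members and either of these sets. The part of stromal RNA in the results was not tested. The 14 myeloid genes summed to 50.2 CPM in members (0 to 90.9) and 180.5 CPM in others (27.0 to 455.7), with Csf1r, Elane and Itgam at 0 UMIs in members, but within libraries the members' sum was the higher in WT DN2a (90.9 against 63.1 CPM), WT DN2b (54.9 against 39.9) and ΔTE DN2b (40.6 against 27.0), on 10 UMIs in all. The 11 B-cell genes summed to 40.2 CPM (0 to 151.6) and 83.0 CPM, with Cd79a and Pax5 at 0. The 10 dendritic cell genes summed to 426.7 and 519.2 CPM, with Siglech and Cd74 at 0, and the 13 progenitor genes to 612.4 and 1054 CPM, with Kit at 220.9 and 221.5 CPM. Within WT DN2a the members' sum was higher for dendritic cell genes (757.8 against 578.4 CPM) and about level for B-cell genes (151.6 against 148.0 CPM). In the other libraries both sums were lower in members. No gene of the myeloid, B-cell, dendritic or progenitor lists was called by edgeR, of 1, 1, 3 and 9 tested, with 1, 0, 0 and 3 at an unadjusted p under 0.05. Of the 15 cell cycle genes, all tested, 0 were called by edgeR and 0 had an unadjusted p under 0.05, and the sum was 4458 CPM in members and 3530 CPM in others. Within libraries the members' cell cycle sum was lower in WT DN1 (1501 against 2962 CPM), WT DN2b (3896 against 4021) and ΔTE DN1 (3115 against 3180). It was higher in WT DN2a, ΔTE DN2a and ΔTE DN2b.

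**Figure D4:**
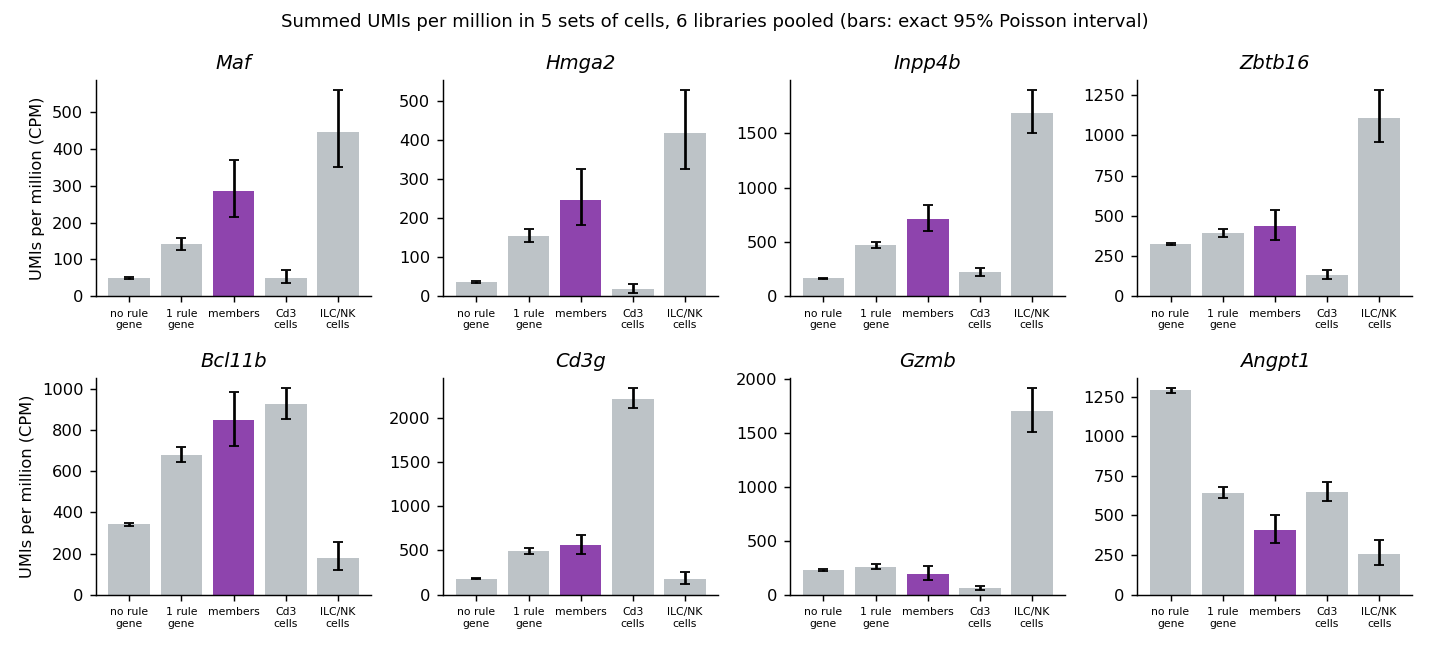
Level in CPM of 8 genes, pooled over 6 libraries, in cells with no UMI of a rule gene, cells with 1 rule gene, members (purple), Cd3 cells and ILC or NK marker cells, with exact 95% Poisson intervals. Bars start at 0. Maf and Hmga2 stand at 286.1 and 246.0 CPM in members and at 50.6 and 17.9 CPM in Cd3 cells, whereas Bcl11b is at 848.4 CPM in members and 179.1 CPM in ILC or NK marker cells.

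To ask what separated members from T-lineage cells with CD3 RNA, they were compared with Cd3 cells over 6763 genes, with the 4 Cd3 genes left out. Of these, 6 passed (0.0887%), 5 higher in members (0.0739%) and 1 lower (0.0148%). Hmga2 had a log2 fold change of 3.34 ± 0.47 (SE), with 49 UMIs in members and 12 in Cd3 cells, and was the only one of the 6 that passed whichever library was left out (largest adjusted p = 0.00019). Maf followed with 2.16 ± 0.39 (286.1 against 50.6 CPM, edgeR adjusted p = 8.5e-05) and Rora, which encodes the nuclear receptor RORα of ILCs and IL-17-producing cells, with 2.0 ± 0.43 (215.9 against 40.2 CPM). Neither was lower in members in any library, and both were higher in 5 of 6. Inpp4b rose by 1.48 ± 0.28.

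Zbtb16, the PLZF gene, was the fifth. It stood at 436.7 CPM in members and 131.0 CPM in Cd3 cells, a log2 fold change of 1.44 ± 0.32 (SE, edgeR adjusted p = 0.0105), and was higher in 6 of 6 libraries. The 3 genes Maf, Rora and Zbtb16 of the IL-17-type list were thus higher in members than in Cd3 cells, of 13 tested, with a list median of 0.28 beside -0.15 for all genes tested. Bcl11b, by contrast, was close in level, 848.4 CPM in members and 928.7 CPM in Cd3 cells, with a log2 fold change of -0.37 ± 0.29. Tcf7, Thy1 and Lck had log2 fold changes of -0.079, -0.13 and -0.24, and none of the 21 T-lineage genes passed by edgeR (274 of all genes had an unadjusted p under 0.05). Gid4 was the gene called lower, with 0 UMIs in members and, in pooled levels, at least 4.15-fold lower. Without WT DN2a, WT DN2b or ΔTE DN2a, 2 of the 6 calls were left, and without ΔTE DN2b 3. When members had to hold 3 UMIs of the rule genes, edgeR called 0 genes, with 413 at an unadjusted p under 0.05.

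The comparison with ILC or NK marker cells gave the most calls. Of 6746 genes tested, 53 passed (0.786%), 29 higher in members (0.43%) and 24 lower (0.356%). The 7 marker genes that chose the comparison cells were left out.

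Of 20 tested genes of the T-lineage list, 5 were called higher and 2 lower in members, with a median log2 fold change of 0.076 beside 0.028 for all genes tested. Bcl11b was at 848.4 CPM in members and 179.1 CPM in ILC or NK marker cells, a log2 fold change of 1.99 ± 0.40 (SE, higher in 5 of 6 libraries, edgeR adjusted p = 0.00047). Notch1, the receptor that DLL1 engages, had a log2 fold change of 2.25 ± 0.54, Thy1 of 1.36 ± 0.36, Il2ra, which encodes CD25, of 1.15 ± 0.30 and Runx1 of 1.16 ± 0.32. These were the 5 called higher, and Id2 and Tox were the 2 called lower. Arpp21, an RNA-binding protein gene active in early T-cell stages, rose by 2.68 ± 0.37 (1631 against 238.8 CPM, adjusted p = 7.4e-10), and Tspan2, Erg and Plekha7 rose by 3.32, 3.00 and 2.34. Erg, an ETS factor of progenitors, rested on 43 and 4 UMIs. Gzma, a granzyme, was also higher in members, by 1.49 ± 0.34.

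Of the IFN-gamma-type and NK list, 5 genes were tested against ILC or NK marker cells, of which 2 were called lower and 1 higher, and of the ILC list 4 were tested, of which 1 was called lower and 0 higher. Gzmb, the granzyme of cytotoxic granules, was at 190.8 CPM in members and 1707 CPM in ILC or NK marker cells, a log2 fold change of -3.07 ± 0.37 (SE, lower in 6 of 6 libraries, adjusted p = 3.1e-13). Tyrobp, an adaptor of NK receptors, had a log2 fold change of -2.71, the ligand-dependent factor Ahr of -2.74, Cd7 of -2.33 and S100a4 of -2.43. Id2, which blocks E proteins and is required for ILCs and NK cells, fell by 1.79 ± 0.43 (125.5 against 579.0 CPM), and Rora fell by 1.63 ± 0.39. Tnni1 and Olfm3, on 2 and 3 UMIs in members, completed the 5 with the smallest values that were lower in 5 or more libraries. Zbtb16 was lower in members by a log2 fold change of -1.10 ± 0.33 that did not pass (adjusted p = 0.0779), as was Inpp4b (-1.03 ± 0.31), while Maf and Hmga2 differed by -0.57 ± 0.38 and -0.37 ± 0.40. Leaving out ΔTE DN2a left 10 of the 53 calls and leaving out ΔTE DN2b left 6, while 80 genes passed without WT DN1. The ΔTE DN2a and DN2b libraries held 97 and 96 of the 266 comparison cells.

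In pooled levels, members were nearer to Cd3 cells in Bcl11b, Thy1 and Notch1 and nearer to ILC or NK marker cells in Maf and Hmga2, while Rora, Zbtb16 and Inpp4b stood between both sets. Zbtb16 and Inpp4b did not pass between members and ILC or NK marker cells. The sets also differed in genotype mix. ΔTE DN2a and ΔTE DN2b held 146 and 143 of 1015 Cd3 cells, 58 and 76 of 278 members, and 97 and 96 of 266 ILC or NK marker cells. The part of this mix in the pooled order was not tested. The 3 comparisons share the members, and are given side by side.

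The last question was how members differed between genotypes. Bcl11b in members was at 939.7 CPM in WT DN2a (31 UMIs) and 490.1 CPM in ΔTE DN2a (19 UMIs), a log2 ratio of -0.94 (95% exact interval -1.85 to -0.070), and at 1084 and 791.3 CPM after the DN2b start, a ratio of -0.45 (-1.05 to 0.12). In all other cells the ratios were -1.06 and -0.68. Zbtb16 in members was at 242.5 CPM in WT DN2a and 851.2 CPM in ΔTE DN2a, a log2 ratio of 1.81 (0.67 to 3.14), and at 246.9 and 446.4 CPM after the DN2b start, a ratio of 0.85 (-0.11 to 1.84). The other cells had Zbtb16 ratios of 1.01 and 1.08, inside the members' intervals.

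Other regulators had wide intervals. Hmga2 had log2 ratios of 1.45 (-0.07 to 3.25) and 1.24 (0.014 to 2.54), Id2 of 1.09 (-1.52 to 4.48) and 1.57 (-0.12 to 3.46), and Maf of -0.88 (-2.49 to 0.61) and 1.28 (0.26 to 2.35), each for DN2a and DN2b in this order. The other cells had ratios of 1.07 and 1.51 for Hmga2, 0.76 and 1.65 for Id2, and 0.21 and 0.93 for Maf. Each of these lay inside the members' interval, so a difference between members and the other cells was not detectable on these counts. For Maf after the DN2a start the ratios had opposite signs. Il2ra was lower in ΔTE members at both starts, by -0.63 (-1.0 to -0.26) and -0.62 (-0.99 to -0.27). The Il2ra ratios of the other cells, -0.24 and -0.17, lay outside the members' interval at both starts, although the intervals of both sets overlapped after DN2a. Gzmb was read in 5 WT and 20 ΔTE UMIs of DN2b members, a log2 ratio of 2.57 (1.11 to 4.33), and in 8 and 5 UMIs after DN2a. In the other cells the DN2b ratio of Gzmb was 1.13, inside the members' interval. Gata3, an early T-lineage and ILC factor, had ratios of 0.50 (-0.78 to 1.88) in DN2a and 1.32 (0.38 to 2.31) in DN2b members. The other cells had Gata3 ratios of 0.50 (0.40 to 0.61) and 0.36 (0.18 to 0.53), the latter just below the members' interval, which its own interval overlapped. With 1 library per genotype and start, culture and genotype cannot be told apart.

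**Figure D5:**
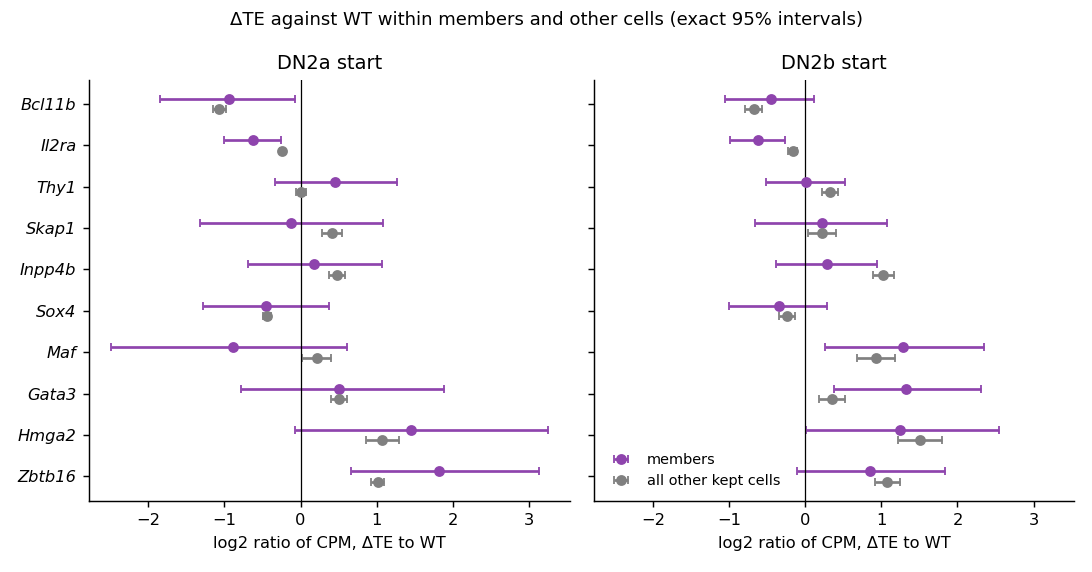
Log2 ratio of the level in ΔTE to that in WT for 10 genes, after a DN2a start (left) and a DN2b start (right), within members (purple) and all other kept cells (grey), with exact 95% intervals of counting error. Bcl11b lies below 0 and Zbtb16 above 0 in both sets of cells after the DN2a start (-0.94 and 1.81 in members).

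Because the 2 receptor genes went apart between genotypes, cells with Cd163l1 but not 5830411N06Rik were also compared with cells with the reverse, a comparison added after the values were seen. Of 7052 genes tested over the 6 libraries, 5 passed (0.0709%), all higher in the Cd163l1 cells, and 0 were lower. Gzmb had a log2 fold change of 0.98 ± 0.17 (SE, 387.7 against 172.1 CPM, higher in 5 of 6 libraries, edgeR adjusted p = 0.000116). Clnk, an immune-cell adaptor, had 0.89 ± 0.20, Hmga2 0.86 ± 0.21, Inpp4b 0.55 ± 0.13 and Ifitm1, an interferon-inducible membrane protein, 0.51 ± 0.12. DESeq2 called 0 of these genes, with 84 at an unadjusted p under 0.05, and edgeR called 0 (219 unadjusted) without ΔTE DN2b. Among members alone, edgeR called 0 genes in this comparison (46 unadjusted), and the log2 fold change of Gzmb was -1.21.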

How the data were processed

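Single cells of 6 libraries, 1 per genotype and start, were measured by sci-RNA-seq3. The authors deposited counts of UMIs for each gene and barcode, unnormalized and unfiltered, and the submitters' processing notes name the mm9 build. The aligner is not given in the sources used here. Libraries held 8007395 to 14555100 UMIs over all barcodes.

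A cell was kept if it had 200 or more genes, up to 2000 UMIs and a mitochondrial share of up to 30%. The rule on the 4 genes chose the members. The members and the gene lists were chosen with earlier results of these data known. UMIs were summed per library and set of cells and compared with edgeR 4.0.16 (R 4.3.3, quasi-likelihood test, TMM, library as block, Benjamini-Hochberg threshold 0.05) on genes in at least 15 kept cells with a mean of at least 20 CPM. Rule genes, and the genes that chose a comparison set, were left out. Stromal and myeloid marker cells had at least 3 UMIs from at least 2 genes of their list. Genes were named by a rule: the 10 (all other cells) or 5 (the other comparisons) highest and lowest fold changes among called genes with 1 direction in at least 5 libraries, called list genes, the 2 to 4 list genes with most UMIs, and Bcl11b, Zbtb16 and Id2. Gene comparisons of Cd163l1 with 5830411N06Rik cells were added after the data were seen. Some genes of the lists and 1 gene called lower are not reported here by name.

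Intervals are exact 95% intervals (Poisson for UMIs, Clopper-Pearson for shares; scipy 1.17.1) and cover counting error only. Wells were not used as replicates. The test was checked on simulated counts of 6899 genes for members against all other cells: 6% of 2-fold and 100% of 4-fold increases, 14% of 2-fold and 68% of 4-fold decreases and 0.0896% of unchanged genes were called. Changes were set only in better-expressed genes, and all libraries were given the same expression profile. DESeq2 1.42.0, other scaling, filters, depth limits, member rules and left-out libraries were alternatives. RefSeq promoter windows of GRCm38.p6 were matched by symbol for 3 of the 4 rule genes. Python 3.11.15, numpy 2.4.6, pandas 2.3.3 and matplotlib 3.10.9 were used.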

Additional observations from a re-analysis of the deposited data

Results flagged for a closer look

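Barcodes with over 30% mitochondrial UMIs, which the comparisons leave out, also held cells that met the rule. It was 0.212% in ΔTE DN2a (9 of 4240, 95% exact interval 0.0971 to 0.403%) against 0 of 518 in WT DN2a, which allows up to 0.579%. It was 1.06% in ΔTE DN2b (47 of 4441, 0.779 to 1.41%) against 0.552% in WT DN2b (19 of 3440, 0.333 to 0.861%). The DN2a difference was not detectable at this depth, the DN2b intervals overlapped, and no test was made between single libraries.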

How the results depend on the processing

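The log2 ratio of the member share, ΔTE to WT, moved by more than its counting interval after the DN2a start to 1.75 with 3 UMIs of the rule genes, 0.039 without Cd163l1 and 2.13 without 5830411N06Rik, and after the DN2b start to -0.62 and 0.89 without these genes. After the DN1 start it had no value with 3 UMIs, without either receptor gene or when thinned. The number of genes called against all other cells was 20, and 8 with DESeq2, 52 with library totals (51.9% higher, against 40.0%), 0 without the library block, 39 without both DN1 libraries, 10 with 3 UMIs and 2 to 16 when 1 library was left out. Against Cd3 cells it was 6, and 10 with library totals, 10 without the block, 0 with 3 UMIs and 2 to 7 when 1 library was left out. Against ILC or NK marker cells it was 53, and 92 with library totals and 6 to 80 when 1 library was left out. Between Cd163l1 and 5830411N06Rik cells it was 5, and 0 with DESeq2, 1 with only the 15-cell filter, 1 without the block, 1 without mitochondrial genes, 2 without both DN1 libraries, 1 in cells with 1 rule gene, 0 in members only and 0 to 5 when 1 library was left out. Zbtb16 reversed to -0.12 against all other cells with 3 UMIs, and Gzmb to -1.21 between the receptor genes in members only. In each case the cause was not tested. With 3 UMIs, both DN1 libraries had 0 members, and cells of like UMI totals were absent among Cd3 and ILC or NK marker cells in ΔTE DN1. DESeq2 gave an adjusted p for 2299 of the 6746 genes against ILC or NK marker cells. Leaving out both DN1 libraries, comparing with cells with no rule gene and comparing the receptor genes were chosen after seeing the data. No paired analysis was possible because each condition was 1 library, and the library block paired the sets of cells within it.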

Other observations

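Among barcodes with over 2000 UMIs, 4 of 117 in WT DN2a, 4 of 51 in WT DN2b, 2 of 93 in ΔTE DN2a and 3 of 15 in ΔTE DN2b met the rule, and 0 of 80 and 0 of 92 in WT and ΔTE DN1.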
